A study of Mus musculus with 7 samples.

Results

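The genes described here are 9 regulators and markers of the dermal papilla, the cluster of signalling cells at the base of the hair follicle: Sox2, Sox18, Alx4, Tbx18, Trps1, Fgf10, Corin, Alpl and Crabp1. They were chosen by name, and 11 array probes carry an accession that maps to them, 3 for Trps1 and 1 for each of the others. They lie on chromosomes 3 (Sox2), 2 (Sox18 and Alx4), 9 (Tbx18 and Crabp1), 15 (Trps1), 13 (Fgf10), 5 (Corin) and 4 (Alpl). The study concerns the dermal sheath, the mesenchymal layer that wraps the follicle and borders the papilla, in mice with and without β-catenin activation. Cells labelled as dermal sheath were taken from dorsal skin of mice at postnatal day 15, and per the labels every sample of both groups was a sort of live cells that carried a YFP reporter and lacked surface CD34, integrin α8 and alkaline phosphatase. The control group holds 3 arrays from 4 mice, with 2 mice pooled on array 3, and the β-catenin activation group (cΔex3 mice) holds 4 arrays from 6 mice, where arrays 2 and 3 are pools of 2 mice each. The Cre driver, the strain and the induction are not given in the sources used here.

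The dermal papilla instructs the epithelium of the follicle when to grow and what kind of hair to make, through secreted FGF, BMP and Wnt factors under the control of a set of transcription factors. Papilla and sheath exchange cells, and β-catenin, the effector of Wnt signalling, is needed in the papilla for hair growth. Alkaline phosphatase activity is a standard stain for papilla cells, and per the labels the sort took cells that lacked alkaline phosphatase.

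All values come from 1-colour arrays, as log2 of the processed signal relative to the array's 75th percentile (a level), and a difference is activation minus control on that scale. A level is comparable between arrays for 1 probe and not between probes. The 75th percentile lay between 752 and 908 units on the control arrays and between 1349 and 2158 on the activation arrays, so an equal signal reads lower on the latter. Hepatocyte transcripts led the control arrays, and the slide named in the header differs from that of the deposited file on 7 of 7 arrays. Whether each array holds the labelled sample is therefore not settled here, and control and activation stand for the arrays so labelled in every difference below. All 12 hepatocyte markers were well above background on every control array, with a summed level of 11.86 to 12.26 there and of 7.06 to 7.99 on the activation arrays. The 12 adipocyte markers had summed levels of 4.25 to 6.72 and of 9.86 to 10.97, and 12 markers of dermal sheath and smooth muscle 7.22 to 8.44 and 7.25 to 8.01. Of these 12, 9 were higher and 1 lower (limma), with a median of 2.13. Acta2 (smooth muscle actin) rose by 5.2 and Cnn1 (calponin) by 5.28, while the 1 lower marker, Mcam, was at −2.63 by the probe used and at 3.74 by its other probe. The β-catenin gene itself, Ctnnb1, had a difference of −0.03 ± 0.14 (SE; limma, adjusted p = 0.8715). The sign turned with normexp (0.09), quantile normalisation (0.46), the deposited values (0.52) and no scaling (1.08), and the last pair passed the threshold. It also turned with arrays of 1 mouse only and within slide row 1 of the file headers. Which exon its probe reads is not known here, so it checks nothing about the allele. Cd34, which the sort excluded, rose by 4.83 (limma, adjusted p = 4.44e-05) and Itga8 differed by −0.77 (adjusted p = 0.318). In bulk samples, fewer cells of a type and less RNA per cell cannot be told apart, and the part of these other transcripts in the differences below was not tested.

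The 9 genes behaved in 4 ways. Sox18, Alx4, Trps1 and Alpl were well above background on all 7 arrays, Tbx18 and Fgf10 on 0 of 3 control and 4 of 4 activation arrays, Corin and Crabp1 on 0 of 3 and 3 of 4, and Sox2 on 0 of 7. Of the 8 that could be tested, 4 were higher on the activation arrays (Fgf10, Tbx18, Trps1 and Sox18), 1 was lower (Alx4) and 3 did not pass the threshold (limma, adjusted p under 0.05 over 18030 genes). The background is broad: 23.8% of all tested genes were called higher and 29.2% lower, 53.0% in all. Without scaling between arrays these counts would be 10087 higher and 1605 lower in place of 4293 and 5266, and the median of all genes 1.02 in place of −0.09. All activation arrays lay above all control arrays for 4 of the 8 tested genes and for 25.9% of all, and below them for 1 of the 8 and for 32.7% of all, 58.6% together. Tbx18, Fgf10, Corin and Crabp1 passed the filter on dim probes only through the activation arrays, so the counts describe these genes and support nothing further. Detection on 0 control and all 4 activation arrays, the pattern of Tbx18 and Fgf10, held for 2.85% of all tested genes, and on 0 control and at least 3 activation arrays for 4.23%.

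**Figure D1:**
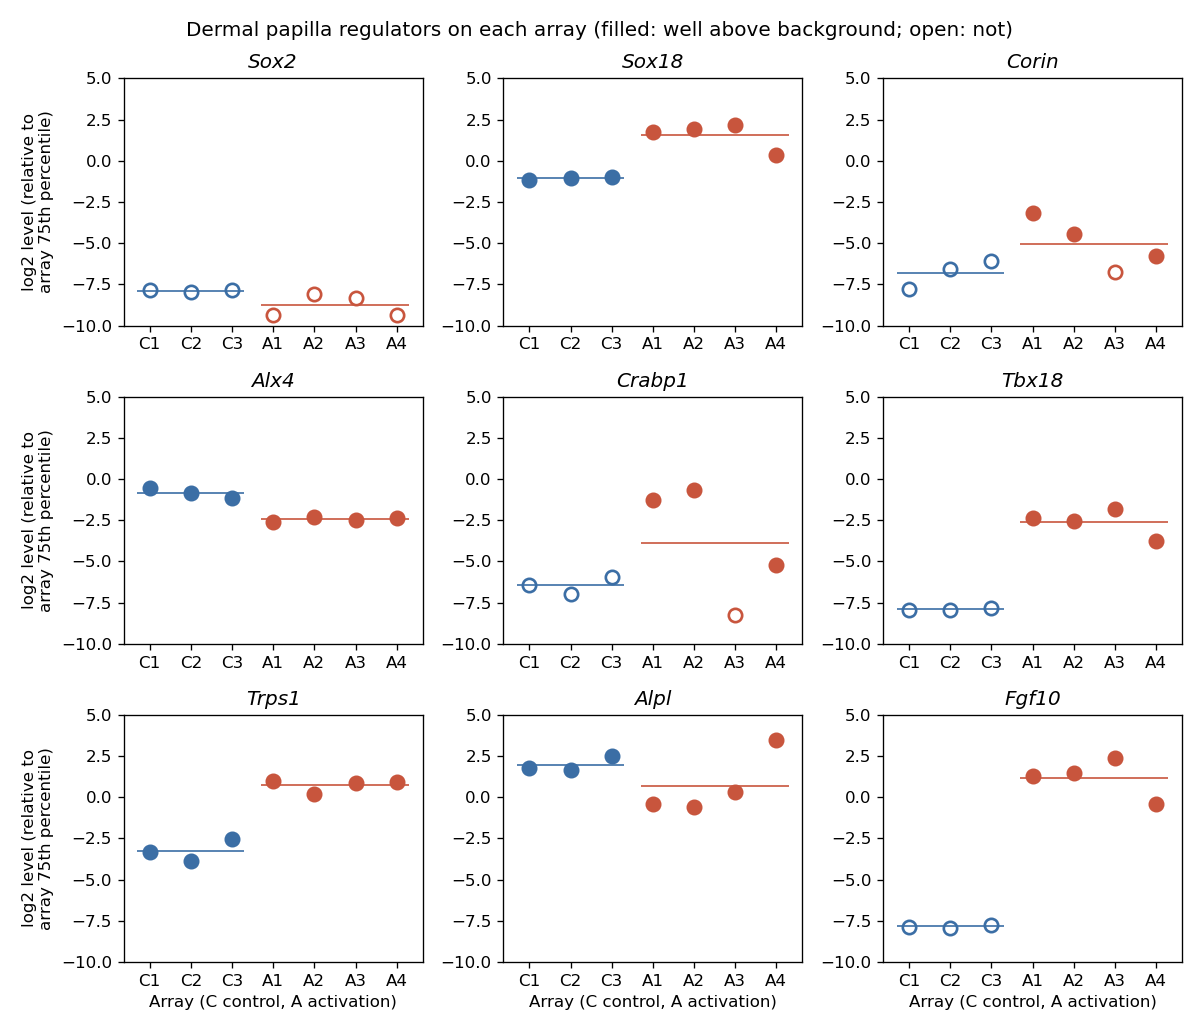
Level of each of the 9 genes on each array, as log2 of the processed signal relative to the array's 75th percentile, with C for control and A for activation arrays. Filled points are well above background, open points are not, and lines are group means. Fgf10 and Tbx18 are open on all 3 control arrays and filled on all 4 activation arrays, and Sox2 is open throughout. Heights cannot be compared between panels.

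Sox2, a transcription factor of the SoxB1 group that marks the papilla of guard, awl and auchene hairs, was not detected. Its processed signal was 3.31, 3.03 and 3.95 on the control arrays and 2.82, 5.09, 5.22 and 3.30 on the activation arrays. The lowest signal of any probe well above background was 13.1 to 24.9, so each array could only set an upper limit on Sox2. It was therefore not tested, and the level it could have below that limit is not known. Of 11 paralogues of the 9 genes that could be tested, 4 were higher and 3 lower (limma), with a median of 0.41. Among the SoxB1 relatives of Sox2, Sox3 was above background on 1 array only. Sox1 was above background on all 7 and fell by 1.63 ± 0.17 (SE; limma, adjusted p = 0.000343), with its other probe at −1.47. Without scaling between arrays the call was lost (−0.52).

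Sox18, a SoxF factor of endothelium that is also expressed in developing papillae, rose. Its levels were −1.13, −1.06 and −0.97 on the control arrays and 1.77, 1.91, 2.15 and 0.35 on the activation arrays. No activation array overlapped the controls, and array 4 stood lowest among them. The mean went from −1.05 ± 0.08 (SD, n = 3) to 1.54 ± 0.81 (SD, n = 4), a difference of 2.60 ± 0.43 (SE; limma, adjusted p = 0.002365). With arrays of 1 mouse only it was 2.15 and missed the threshold (adjusted p = 0.0523).

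The other SoxF genes rose as well. Sox17 rose by 3.37 (limma, adjusted p = 0.000652), with levels of −1.81, −1.70 and −1.23 against 2.14, 2.29, 2.02 and 0.69. Sox7 rose by 3.13 (adjusted p = 0.00112), and it too was lowest on activation array 4. Markers of blood endothelium moved beside them. All 12 were above background on every array, their summed level was 6.15 to 6.29 on the control arrays and 7.15, 7.64, 7.59 and 6.33 on the activation arrays, and 9 were higher and 1 lower (limma). Vwf (von Willebrand factor) rose by 2.93, Cdh5 (VE-cadherin) by 1.36 and Pecam1 by 1.40. Kdr, the main VEGF receptor gene, was the 1 called lower, at −1.5 by its brighter probe (adjusted p = 0.00158) and 0.62 by a second probe, which leaves no settled direction. These endothelial genes were picked as textbook markers after their values had been seen, and their part in the rise of Sox18 was not tested. By the smallest root mean square difference between centred levels over the 7 arrays, the genes most like Sox18 were Dlc1 (0.105) and Nsg1 (0.108).

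**Figure D2:**
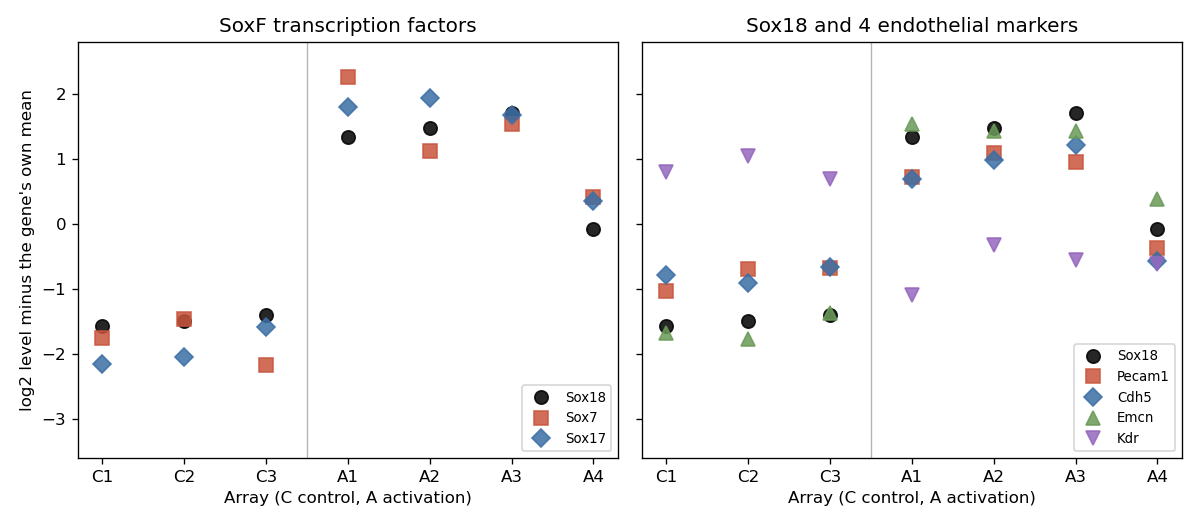
Log2 level of each gene minus that gene's own mean over the 7 arrays, for the SoxF factors (left) and for Sox18 with 4 endothelial markers (right), by array (C control, A activation). Sox18, Sox7, Sox17, Pecam1, Cdh5 and Emcn lie higher on the activation arrays and lowest among them on array 4, while Kdr, by its brighter probe, lies lower on the activation arrays.

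Alx4, a homeodomain factor of mesenchyme that marks the papilla in skin, was the 1 regulator of the 9 called lower. Its levels were −0.52, −0.85 and −1.16 on the control arrays and −2.61, −2.32, −2.50 and −2.37 on the activation arrays. The groups did not overlap, and the activation arrays lay within a narrow band. The difference was −1.61 ± 0.20 (SE; limma, adjusted p = 0.000676). Before scaling, its signal was 523, 421 and 407 on the control arrays and 304, 270, 294 and 419 on the activation arrays, so that array 4 lay inside the control range. Without scaling between arrays, an alternative chosen after seeing the data, the difference was −0.50 and missed the threshold (adjusted p = 0.0863). The median of all genes stood at 1.02 in that setting. Scaling subtracts 1 value per array from every gene. The place of Alx4 relative to all genes is therefore the same in both by construction and adds no support.

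Alx1, a relative of Alx4, went the other way. It was not above background on any control array and was on all 4 activation arrays, at least 3.70-fold higher (limma, adjusted p = 5.85e-05). The fitted difference of Alx1 was 4.10, with 0.68 under normexp and 1.49 with the deposited values. The 2 genes with patterns most like that of Alx4 were Top1mt (root mean square difference 0.088) and Mettl5 (0.091). Markers of hepatic stellate cells fell for 5 of 8 and rose for 0, with summed levels of 6.17 to 6.47 on the control and 5.23 to 5.62 on the activation arrays, and their part in the level of Alx4 was not tested.

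Tbx18, a T-box factor that marks papilla precursors from their first condensation, rose from below background. Its signal was 3.08, 3.06 and 4.00 units on the control arrays and 359, 232, 472 and 156 on the activation arrays. No control array was well above background and every activation array was. It was at least 8.35-fold higher, and the fitted difference of 5.27 ± 0.44 (SE; limma, adjusted p = 0.0001265) uses control signals at background. The fitted size depends on how background is treated and on any constant added. It was 1.5 under normexp, which adds 50 units to every signal, and 2.28 with the authors' deposited log2 values, and passed in both.

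Among the T-box relatives, Tbx15, which patterns dorsal skin, was above background on 1 control and 1 activation array and was not tested. Tbx20 went the other way. It was at least 24.8-fold lower (limma, adjusted p = 3.83e-05), above background on 3 of 3 control and 0 of 4 activation arrays. The fitted difference of Tbx20 was −6.39, with −3.17 under normexp and −2.75 with the deposited values. The patterns most like that of Tbx18 were those of Ehd2 (root mean square difference 0.105) and Prdm8 (0.145), the latter above background on 4 of 7 arrays.

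Trps1, a GATA-type repressor that is mutated in a human syndrome of sparse hair, rose on all 3 of its probes. With the brightest probe its levels were −3.35, −3.89 and −2.53 on the control arrays and 0.99, 0.19, 0.86 and 0.91 on the activation arrays. The groups were separated by more than their spread. Group means of −3.26 ± 0.69 (SD, n = 3) and 0.74 ± 0.37 (SD, n = 4) gave a difference of 3.99 ± 0.36 (SE; limma, adjusted p = 0.000177), and the other probes gave 3.46 and 3.86. It kept its direction and its call in all 20 alternatives, over a range of 3.17 to 5.10. Gm3383 (0.189) and Nalcn (0.211) had the smallest root mean square difference from it.

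Fgf10, a secreted growth factor that mesenchyme sends to epithelium through the receptor FGFR2, changed most in fitted size among the 8 tested genes. Its probe is printed 10 times on each array, which gives the measurement a technical check. The median signal over the 10 spots was 2.93, 3.10 and 4.18 on the control arrays, where 0 of 10 spots were well above background on any array. On the activation arrays it was 4500, 3736, 8498 and 1656, with 10 of 10 spots above background on each and a spread over spots of 2.68% to 3.56% (coefficient of variation). Array 3 was highest and array 4 lowest, and the spread over spots is technical and does not measure that between samples. These medians and spreads include spots marked outliers, 1 each on control array 3 and on activation arrays 2 and 3, which the levels leave out.

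Fgf10 was at least 117-fold higher on the activation arrays, or 88.9-fold without activation array 3 and 168-fold without array 4. Its fitted difference was 9.02 ± 0.59 (SE; limma, adjusted p = 4.73e-05), with 4.87 under normexp and 5.54 with the authors' deposited values. Tshr and Adig had the most similar patterns, with root mean square differences of 0.411 and 0.448. Tshr was above background on 4 of 7 arrays and Adig on all 7. The adipocyte markers were higher on the same arrays, 12 of 12 called, as were 6 of 6 mesothelial markers, whose summed level was −1.33 to 0.57 on the control and 3.87 to 5.34 on the activation arrays. In both lists array 4 was the lowest activation array, as it was for Fgf10, Tbx18 and Sox18. Their part in these differences was not tested.

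The upstream sequence of Fgf10 and of Tbx18 is printed because these 2 genes were detected on every activation array and on no control array, in a comparison built on β-catenin, which acts on DNA through TCF/LEF factors. Both windows are the 250 bases before the RefSeq start on GRCm38.p6, at chr13:118714449-118714698 on the plus strand for Fgf10 and chr9:87731261-87731510 on the minus strand for Tbx18, written 5′ to 3′ along the gene in lower case.
Fgf10: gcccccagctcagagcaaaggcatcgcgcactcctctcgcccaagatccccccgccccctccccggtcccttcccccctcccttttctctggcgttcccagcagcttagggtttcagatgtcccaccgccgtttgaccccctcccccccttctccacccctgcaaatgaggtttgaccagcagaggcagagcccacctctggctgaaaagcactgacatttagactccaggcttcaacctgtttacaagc
Tbx18: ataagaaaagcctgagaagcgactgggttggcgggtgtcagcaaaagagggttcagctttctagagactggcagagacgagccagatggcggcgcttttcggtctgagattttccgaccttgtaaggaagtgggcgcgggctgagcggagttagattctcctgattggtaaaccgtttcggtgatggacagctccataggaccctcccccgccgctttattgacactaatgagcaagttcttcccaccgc
The TCF/LEF motif, searched as CTTTGAA or CTTTGAT on both strands, occurred in 0 of the 7 windows found for 6 of the 9 genes (Sox2, Corin, Crabp1, Tbx18, Alpl with 2 starts, and Fgf10), and no base is therefore in capitals. Of all 32851 windows of that length in the RefSeq table, 7.48% hold it. The absence of these letters covers this window only and says nothing about binding. The Tbx18 window holds 15 CpG and 54.0% G and C, and the Fgf10 window 8 CpG and 61.2%, where the median over all windows is 6 CpG and 52.4%. Sox18, Alx4 and Trps1 were not in that table.

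Of 18 FGF receptor, heparan partner and response genes tested, 7 were higher and 5 lower (limma), with a median difference of 0.33. Spry2, a feedback inhibitor, rose by 1.90 ± 0.22 (SE; adjusted p = 0.000492), with 0.67 under normexp and 1.19 with the deposited values. Dusp6 and Etv4, response genes picked after their values had been seen, fell by 1.36 (adjusted p = 0.0247) and by 0.71 (adjusted p = 0.0279), the latter with its other probe at −0.12. Before scaling, the signals of Dusp6 overlapped between the groups. Those of Etv4 were 378, 258 and 384 on the control arrays and 377, 396, 460 and 560 on the activation arrays, so its fall holds for scaled levels only. Other response genes went the other way: Spry1 rose by 1.95 (adjusted p = 0.00111) and Etv1 by 1.54 (adjusted p = 0.00153), with its other probe at 2.64. Etv5, Spry4, Spred1 and Spred2 did not pass, so the response genes had no common direction on the scaled levels. The heparan sulphate proteoglycan gene Gpc3 rose by 5.17 and the heparan sulphatase gene Sulf1 by 5.84, with its other probe at 3.8. The fit of Sulf1 drops control array 1, where its spot was marked an outlier. Syndecan-1 (Sdc1), the proteoglycan of epithelia and hepatocytes, fell by 2.68 (adjusted p = 0.000215). Fgfr2, the receptor of FGF10, differed by −0.67 (adjusted p = 0.138) and was above background on all 7 arrays. Its other probe, above background on 6 arrays, gave −1.39 (adjusted p = 0.0919 over all probes). Fgf7, the papilla's other ligand for that receptor, rose by 2.69 (adjusted p = 0.000892), while Fgf3 and Fgf22 were above background on 0 of 7 arrays each.

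Corin, a membrane serine protease of the papilla that acts on the agouti pathway of coat colour and, in heart, activates the natriuretic peptide ANP, split the activation arrays. Its signal was 3.45, 7.97 and 13.4 on the control arrays, none well above background. On the activation arrays it was 211, 61.3, 15.4 and 39.2, and array 3 was not above background. The bound on a rise of Corin was 1.58-fold with array 3 taken as measured, which is no strict minimum. The fitted difference of 1.77 ± 0.87 (SE; limma, adjusted p = 0.127) did not pass. Without activation array 3 it was 2.35 and passed (adjusted p = 0.0432). With normexp, which adds 50 units to every signal, it was −0.20. The bound itself was 1.02-fold without activation array 1, so it rests on that array. Over centred levels, Lrrc6 (root mean square difference 0.448) and Slc17a6 (0.470) came closest to its pattern.

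The genes around Corin differed in direction. Of 7 tested natriuretic peptide and convertase genes, 2 were higher and 3 lower (limma), with a median of −0.17. The clearance receptor gene Npr3 rose by 7.14 ± 0.56 (SE; adjusted p = 9.83e-05) and the ANP receptor gene Npr1 by 2.06 (adjusted p = 0.0034), with 0.74 under normexp, which did not pass. The convertase genes Furin and Pcsk6 fell by 1.81 and 1.85, the latter not past the threshold with quantile normalisation (−1.28), the deposited values (−1.25), no scaling (−0.74) or without control array 1. Nppa, which encodes the substrate of Corin in heart, had a difference of −0.09 (adjusted p = 0.665). Agouti (a) was above background on 0 of 3 control and 2 of 4 activation arrays and its receptor gene Mc1r on 0 of 7. Tmprss6, a liver protease of Corin's family, fell by 9.08 (adjusted p = 8.88e-06).

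Alpl encodes tissue-nonspecific alkaline phosphatase, the enzyme behind the papilla stain and 1 of the proteins that the sort selected against. Its transcript was above background on all 7 arrays. Levels were 1.80, 1.63 and 2.49 on the control arrays and −0.39, −0.62, 0.31 and 3.49 on the activation arrays. Activation arrays 1 to 3 lay below every control array, and array 4 above every control array. Over all 7 the difference was −1.28 ± 0.98 (SE; limma, adjusted p = 0.305), and without activation array 4 it was −2.21 and passed (adjusted p = 0.00219). The processed signal on array 4 was 24262 against 875 to 2055 on the other activation arrays. Slc14a2 and Macc1 had the patterns closest to that of Alpl, at 0.401 and 0.447. Of 9 keratinocyte markers tested, 2 were higher and 1 lower (limma), and all 10 listed had a summed level of 4.59 on array 4 and of 2.86 to 3.29 on the other activation arrays, with Krt1 above background on 0 of 7 arrays. Whether they bear on Alpl was not tested.

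Other genes of mineralisation gave no common direction. Of 13 tested, 2 were higher and 3 lower (limma), with a median of 0.15. Mgp, the matrix Gla protein that inhibits calcification, rose by 5.36 ± 0.24 (SE; adjusted p = 1.26e-05) and kept its call in all 20 alternatives. Osteopontin (Spp1) fell by 3.94, the osteoblast factor gene Sp7 by 1.00 and Phospho1, which works with alkaline phosphatase in matrix vesicles, by 0.82, a call lost without control array 1 or 2, with the replicate number as a block and with the deposited values (−0.43). Without scaling between arrays Sp7 was at 0.11 and Phospho1 at 0.29, neither past the threshold. The intestinal paralogue Alpi was above background on 1 of 3 and 3 of 4 arrays and differed by 0.42 (adjusted p = 0.519).

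Crabp1, which binds retinoic acid in the cytosol and marks papilla and upper dermal fibroblasts, differed most among the activation arrays. Its signal was 8.79, 6.04 and 14.6 on the control arrays, none well above background. The activation arrays read 769, 836, 5.54 and 57.4, so that arrays 1 and 2 were high, array 4 low and array 3 not above background. The bound on a rise of Crabp1 was 3.57-fold with array 3 taken as measured, which is no strict minimum. Its fitted difference of 2.59 ± 1.79 (SE; limma, adjusted p = 0.257) did not pass. Without activation array 3 the bound was 9.80-fold and the difference 4.05, which passed (adjusted p = 0.0318). Without array 1 or 2 the bound was 1.96-fold or 1.72-fold. Sntn (0.354) and Kl (0.508) were nearest to its pattern by root mean square difference, and both were above background on 3 of 7 arrays.

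Its paralogue Crabp2 was above background on all 7 arrays and differed by −0.31 (limma, adjusted p = 0.735). Of 16 genes that handle retinoids, 4 were higher and 8 lower, with a median of −1.07. The retinoic acid synthesis genes Aldh1a2 and Aldh1a3 rose by 4.63 ± 0.32 and 4.25 ± 0.43 (SE; adjusted p = 6.29e-05 and 0.000275). The plasma retinol carrier gene Rbp4 fell by 3.14. Cyp26a1, whose product degrades retinoic acid, fell by 7.02 (adjusted p = 0.000789). The hepatocyte markers, with a median of −8.42 and 12 of 12 lower, fell on the same arrays, and their part was not tested.

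**Figure D3:**
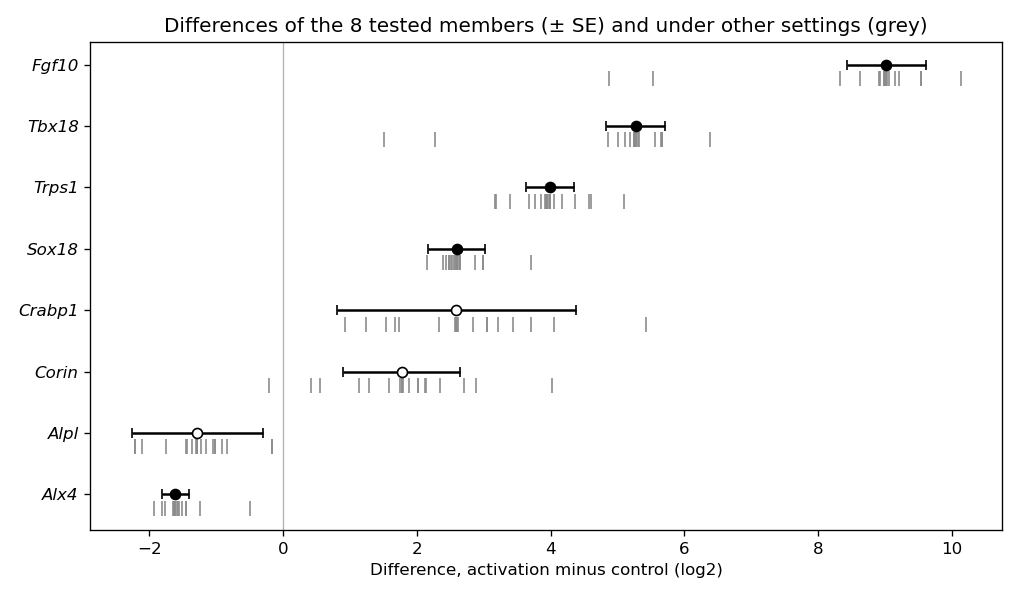
Difference of each of the 8 tested genes, activation minus control on the log2 scale, with its SE, and the same difference under each other setting as grey marks below it. Filled points passed the threshold (limma). Fgf10, Tbx18, Trps1 and Sox18 lie above 0 and Alx4 below it under every setting shown, Corin crosses 0 under 1 setting, and the 2 low marks of Fgf10 and of Tbx18 are normexp and the deposited values.

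Beyond the 9 genes, other genes known from the papilla were higher for 17 of 36 tested (47.2%) and lower for 9 (25%; limma), with a median of 0.96. Over all tested genes the shares were 23.8% and 29.2% and the median −0.09. The list was chosen with earlier results of these data known, so the contrast describes these genes and supports nothing further. Twist2, a dermal transcription factor, rose by 4.63 ± 0.29 (SE; adjusted p = 4.07e-05) and the Wnt5a receptor gene Ror2, above background on 1 of 3 control arrays, by 4.13 ± 0.27 (adjusted p = 4.73e-05). The size for Ror2 was 2.00 with normexp and 2.56 with the deposited values. Bmp4, a papilla signal to the matrix, rose by 2.77 (adjusted p = 0.000297), whereas Notum, a secreted Wnt inhibitor, fell by 1.74 (adjusted p = 0.000259). Twist2 is also a marker of dermal fibroblasts, of which 11 of 14 were higher, with summed levels of 7.07 to 7.40 on the control and 8.05 to 8.75 on the activation arrays.

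Several genes that define the papilla were picked after their values had been seen. Lef1, the partner of β-catenin, rose by 2.14 and 2.17 with its 2 probes. The hedgehog target Gli1, above background on 2 of 3 control arrays, rose by 5.04 (limma, adjusted p = 0.000401), a size that includes a control signal at background. Prdm1 and Ptch1 had differences of 0.02 (adjusted p = 0.928) and −0.01 (adjusted p = 0.974), and the Wnt inhibitor gene Wif1 differed by 0.91 (adjusted p = 0.472). The BMP inhibitor gene Nog fell by 1.47 (limma, adjusted p = 0.000925) and the R-spondin gene Rspo3 by 1.80 (adjusted p = 0.0373). Before scaling, the signal of Nog on activation array 4 (738) lay inside the control range of 728 to 973. That of Rspo3 on the same array (3659) lay above the control range of 1372 to 2364. Versican (Vcan) gave opposite answers by probe: the brighter fell by 0.97 (adjusted p = 0.0041) and the other rose by 6.33 (adjusted p = 5.87e-05 over all probes), so its direction is not settled. Foxd1 was above background on 0 of 7 arrays and Rspo2 on 2 of 4 activation arrays only.

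**Figure D4:**
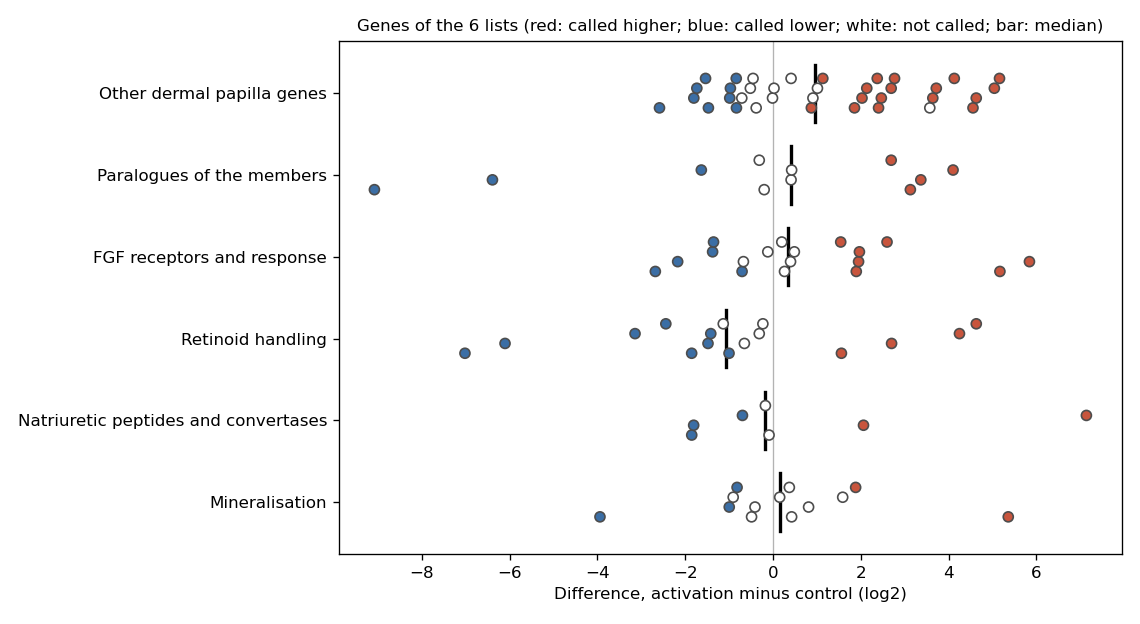
Difference of each tested gene in 6 lists around the papilla regulators, activation minus control on the log2 scale. Red points were called higher, blue lower and white not called (limma), and the black bar is the list's median. The medians run from −1.07 (retinoid handling) to 0.96 (other papilla genes), and each list holds genes called in both directions.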

How the data were processed

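RNA of sorted cells was measured on 7 Agilent arrays, 1 per sample, from 10 ng of input per the labels. Per the file headers, the scans went through Feature Extraction 10.7.1.1 by Agilent. The deposited intensity used was the processed signal, linear and not normalised between arrays, with background removed, per the file headers. The authors also deposited log2 values of the series, whose making is not stated, with equal distributions in each column and an unknown background offset; they served as an alternative. Header and file name disagree on the slide for 7 of 7 arrays and on the position for 4, and arrays were assigned by the deposit's own record of files.

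Control spots and outlier marks were left out, spots of 1 probe averaged, and 28026 of 55681 probes named through RefSeq accessions (GRCm38.p6); the other 27655 are unnamed here. Levels are log2 minus the array's 75th percentile. Tested were probes that 3 or more of the 7 arrays marked well above background, with the brightest probe per gene, in limma 3.58.1 (R 4.3.3; lmFit and eBayes, two-sided, no covariate) with Benjamini-Hochberg adjustment over 18030 genes. Adjusted p-values come from this fit, or, where a sentence names another setting or all probes, from limma refitted that way. "At least N-fold" sets the brighter group's mean against, per array of the other, the higher of the probe's signal and the lowest signal well above background. This bound applies to the processed signal only, and arrays of the brighter group enter as measured. For Corin and Crabp1 these include activation array 3, which was not above background, so their bound is no strict minimum. Summed levels are log2 of the summed signals over the 75th percentile. Normexp, an alternative background correction of the raw signals, added 50 units to every signal, which shrinks the differences of dim probes. A probe at background then also reads lower on arrays with a higher 75th percentile. The number of arrays limits precision, and 0 spots were saturated.

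The members and lists were chosen with earlier results of these data known. Named genes are the 9 members, up to 4 genes of each list with the smallest p, 2 genes with the nearest pattern per member, Ctnnb1, Cd34 and Itga8; others are said to be picked later or are the members' direct relatives, receptors, substrates and markers, named after their values had been seen. Same-numbered arrays of the groups did not deviate together (correlations of −0.01, −0.0009 and 0.02 across genes), so the numbers were not treated as pairs.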

Additional observations from a re-analysis of the deposited data

Results flagged for a closer look

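Among 36 named genes, 4 had 1 activation array whose gap to the next, as a share of the range over the 4 arrays, was above Dixon's 95% critical value, where chance marks about 1 in 20. Trps1 was at 0.19 on array 2 and at 0.86 to 0.99 on the other activation arrays, all above the controls. Ror2 was at −2.10 on array 4 and at −1.28 to −1.25 on the others. Cd34 was at 4.72 on array 4 and at 5.59 to 5.64 on the others. Tmprss6 was at −3.48 on array 1 and at −2.40 to −2.22 on the others. The group of 3 control arrays is too small for this test.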

How the results depend on the processing

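Trps1 and Fgf10 kept direction and call in every alternative run (20 and 19). Slide rows were taken from the file headers, whose position differs from that of the file name on 4 arrays. Which arrays shared a row is therefore not settled, and the row results below hold only for the rows of the headers. Within slide row 2, which holds 1 control array and where 528 genes were higher and 714 lower in place of 4293 and 5266, Sox18 (2.44), Alx4 (−1.24) and Tbx18 (5.11) missed the threshold and the counts of called genes fell to 2 of the members and to 3 papilla, 3 paralogue, 2 FGF, 2 retinoid, 1 natriuretic and 1 mineralisation genes. Row 1 holds 1 activation array, array 1, which is the highest for Corin and high for Crabp1, and its lone array is assumed to vary like the controls. There Corin (4.03), Crabp1 (5.42) and Alpl (−2.11) passed, which made 8 members called and says nothing of the other activation arrays. Sox18 missed the threshold with arrays of 1 mouse only (2.15) and Alx4 without scaling (−0.50), where Corin passed (2.88). Normexp turned Corin to −0.20. With probes above background on all arrays, 4 members were left, 3 of them called, where 3478 of all 15366 genes were higher and 4801 lower. Leaving out 1 array gave 1.14 to 2.35 for Corin, 1.54 to 4.05 for Crabp1 and −2.21 to −0.84 for Alpl, and 3 to 5 natriuretic and 3 to 6 mineralisation genes. The natriuretic count was 3 with quantile normalisation, with the deposited values and with arrays of 1 mouse only. The replicate block, over numbers that do not pair the arrays, drops activation array 4 and gave Alpl −2.21 past the threshold; it changed no other member's call. Quantile normalisation moved the median of all genes from −0.09 to 0.13 and normexp to −0.23. Corin, Crabp1, Tbx18 and Fgf10 could not be tested with probes above background on all arrays and Sox2 only without a filter, where it has no fold since both groups were below background. The causes were not tested.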

Other observations

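Activation array 4 held levels unlike those of the other activation arrays for several listed genes whose own values are not given above. The T-box gene Tbx22, a relative of Tbx18, was at 0.14 there and at −5.03 on array 3. It was not above background on the other activation arrays or on any control array. The stem cell keratin gene Krt15 was at 0.25 against −6.75 to −5.26 on the other activation arrays, of which array 2 was not above background. Krt5 was at 2.3 against −3.38 to −2.20, and the lactoferrin gene Ltf at 3.17 against −4.80 to −2.93. Ncam1, which marks papilla and nerve, was at 4.03 against −1.43 to −0.37, and its difference of 3.57 missed the threshold (limma, adjusted p = 0.0524). The other probes of Ncam1 gave 2.64 and −0.41. All were picked because of these values.

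Hhip, a hedgehog inhibitor of the papilla, ranged over the activation arrays from −3.31 on array 3 to 2.38 on array 4 and lay between 0.25 and 0.60 on the control arrays. Bmp3 was at −0.92, 1.64, 1.83 and −1.58 on the activation arrays, with a rise of 5.16 (limma, adjusted p = 0.00281).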
